A study of Mus musculus with 12 samples.

Results

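The genes described here are 10 members of the mouse Toll-like receptor system: the receptors Tlr1, Tlr2, Tlr3, Tlr4, Tlr6, Tlr7, Tlr8, Tlr9 and Tlr13, and the adaptor Myd88. They were found by symbol among the 54532 Ensembl gene IDs counted, and all 10 passed the filter on low counts. Toll-like receptors are membrane proteins that bind conserved molecules of microbes or molecules released by damaged cells. TLR1, TLR2, TLR4 and TLR6 sit mainly at the cell surface and bind lipids and lipoproteins, whereas TLR3, TLR7, TLR8, TLR9 and TLR13 act in endosomes and bind nucleic acids. All except TLR3 pass the signal on through MyD88 to NF-kB and interferon regulatory factors. TLR3 uses the adaptor TRIF instead, and TLR4 uses both. In the brain most of these receptors are transcribed mainly by microglia and by blood-derived macrophages, and TLR3 also by astrocytes.

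RNA was sequenced from the striatum of C57BL/6J mice, 7 or 14 days after ischemic stroke. At each time there were wild-type (WT) mice, mice labelled cGAS-KO and mice labelled STING-KO, made with CRISPR-Cas9 to lack Cgas or Sting. Each of the 6 groups held 2 libraries, 12 in all, and all had the stroke, so no uninjured level was measured. cGAS is an enzyme that senses DNA in the cytosol, and STING is the adaptor it activates. The labels give neither the age of the mice nor whether 2 libraries came from 2 mice, so p-values measure only the spread between these libraries, which may be technical.

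The libraries held 15956242 to 22126213 counts, and levels are given as CPM, counts scaled to library size. A level of 0.133 to 0.195 CPM stands for 3 counts. Against WT, the RNA of the 2 targeted genes went against the knockout labels at 7 days and lay on the labels' side at 14 days. Cgas stood at 3.25 and 2.96 CPM in 7-day WT, at 5.54 and 5.65 CPM in 7-day cGAS-KO and at 11.2 and 12.6 CPM in 7-day STING-KO. At 14 days Cgas stood at 12.6 and 7.68 CPM in WT, at 4.09 and 6.15 CPM in cGAS-KO (adjusted p = 0.270 against WT by edgeR), and at 4.5 and 3.58 CPM in STING-KO. Tmem173, the gene of STING, stood at 2.80 and 2.71 CPM in 7-day WT, at 28.6 and 30.2 CPM in 7-day cGAS-KO and at 20.9 and 23.8 CPM in 7-day STING-KO. Between the 2 knockout labels at 7 days, each targeted gene was thus lower under its own label. Neither difference was called by edgeR (adjusted p = 0.181 for Cgas and 0.713 for Tmem173). At 14 days Tmem173 stood at 22.2 and 20.8 CPM in WT and at 2.40 and 5.21 CPM in STING-KO, where Cgas was called lower as well. A gene-level count cannot show a small deletion that leaves the transcript in place, so cGAS-KO and STING-KO are used below as labels of libraries. The summed level of 10 markers of striatal projection neurons, which define the labelled tissue, was 202 to 206 CPM in 7-day WT and 131 to 452 CPM in the 7-day knockout libraries. At 14 days it was 759 to 997 CPM in WT, then 1629 to 2688 CPM in cGAS-KO and 5885 to 6255 CPM in STING-KO. Markers of cortical and hippocampal neurons summed to 1889 and 2205 CPM in 7-day WT and to at most 639 CPM elsewhere. Markers of the choroid plexus summed to 2552 to 4578 CPM in the 7-day knockout libraries and to at most 709 CPM elsewhere. The 7-day WT libraries stood apart on the second principal component, and with 14-day STING-KO they stood at one end of the first, which held 50.9% of the variance. Every comparison with either group carries these differences. Others carry some of them: 14-day cGAS-KO differed from 14-day WT in the striatal sum, and from 7-day cGAS-KO in the striatal and choroid plexus sums. The part of all these differences in the results was not tested.

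The promoter windows of 5 members are shown because these members stand for the patterns described below: Tlr13 and Tlr8 were highest in the 7-day knockout libraries, Tlr2 was as high in 14-day WT as in those libraries, Tlr3 departed from the other receptors, and Myd88 is their adaptor. Each window runs from 250 bases before to 50 bases after the RefSeq start site, on the gene's own strand in assembly GRCm38.p6. Capitals mark matches on either strand to 3 motifs bound by factors of myeloid and inflammatory transcription: the PU.1 core GAGGAA, an interferon regulatory factor (IRF) element AANNGAAA and an NF-kB site, GGG and CC separated by 5 bases. The RefSeq start used lies 700 bases from the GENCODE start for Tlr3 and 1393 bases for Myd88.
Tlr13 (chrX:106143025-106143324, plus strand): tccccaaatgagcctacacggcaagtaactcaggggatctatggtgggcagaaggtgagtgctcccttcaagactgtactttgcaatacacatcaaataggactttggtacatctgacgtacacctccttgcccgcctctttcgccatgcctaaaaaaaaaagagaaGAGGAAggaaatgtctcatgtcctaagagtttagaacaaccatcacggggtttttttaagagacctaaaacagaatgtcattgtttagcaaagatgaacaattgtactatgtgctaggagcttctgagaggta
Tlr8 (chrX:167264280-167264579, minus strand): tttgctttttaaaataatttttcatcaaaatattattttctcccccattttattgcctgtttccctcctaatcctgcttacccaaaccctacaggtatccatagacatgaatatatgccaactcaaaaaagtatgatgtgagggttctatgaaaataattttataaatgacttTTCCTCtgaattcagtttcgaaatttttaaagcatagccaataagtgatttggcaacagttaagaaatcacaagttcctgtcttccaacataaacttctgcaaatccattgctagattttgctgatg
Tlr2 (chr3:83841559-83841858, minus strand): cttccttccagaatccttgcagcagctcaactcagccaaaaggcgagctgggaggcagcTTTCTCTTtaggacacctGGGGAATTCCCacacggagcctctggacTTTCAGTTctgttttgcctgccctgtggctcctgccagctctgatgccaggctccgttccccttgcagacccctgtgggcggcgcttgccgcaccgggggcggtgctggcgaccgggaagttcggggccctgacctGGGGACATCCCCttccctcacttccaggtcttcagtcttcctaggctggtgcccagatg
Tlr3 (chr8:45410331-45410630, minus strand): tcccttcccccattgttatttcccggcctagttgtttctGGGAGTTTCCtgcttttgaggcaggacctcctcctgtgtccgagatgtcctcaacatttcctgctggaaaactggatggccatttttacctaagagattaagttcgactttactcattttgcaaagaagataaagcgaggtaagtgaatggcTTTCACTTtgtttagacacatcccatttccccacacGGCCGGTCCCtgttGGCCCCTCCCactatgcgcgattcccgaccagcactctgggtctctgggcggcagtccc
Myd88 (chr9:119339969-119340268, minus strand): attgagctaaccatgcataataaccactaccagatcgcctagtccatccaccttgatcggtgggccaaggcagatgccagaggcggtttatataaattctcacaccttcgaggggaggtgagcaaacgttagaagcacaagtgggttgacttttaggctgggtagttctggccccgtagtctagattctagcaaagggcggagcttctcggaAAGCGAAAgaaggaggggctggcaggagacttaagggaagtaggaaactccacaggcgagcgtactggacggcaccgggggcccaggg
Of the 10 members, 8 had a window in the RefSeq set used here, which held none for Tlr4 and Tlr7. The PU.1 core was matched in 4 of the 8 windows, those of Tlr1, Tlr8, Tlr9 and Tlr13, against 28.3% of 32851 windows of all genes. The IRF element was matched in 3, those of Tlr2, Tlr3 and Myd88, against 23.9% of all windows. The NF-kB site was matched in 3, those of Tlr2, Tlr3 and Tlr6, against 50.8%, and its matches in Tlr2 overlap one another at both places where they lie. No window held both the PU.1 core and the IRF element. Such matches are a description of these letters and show no binding.

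**Figure D1:**
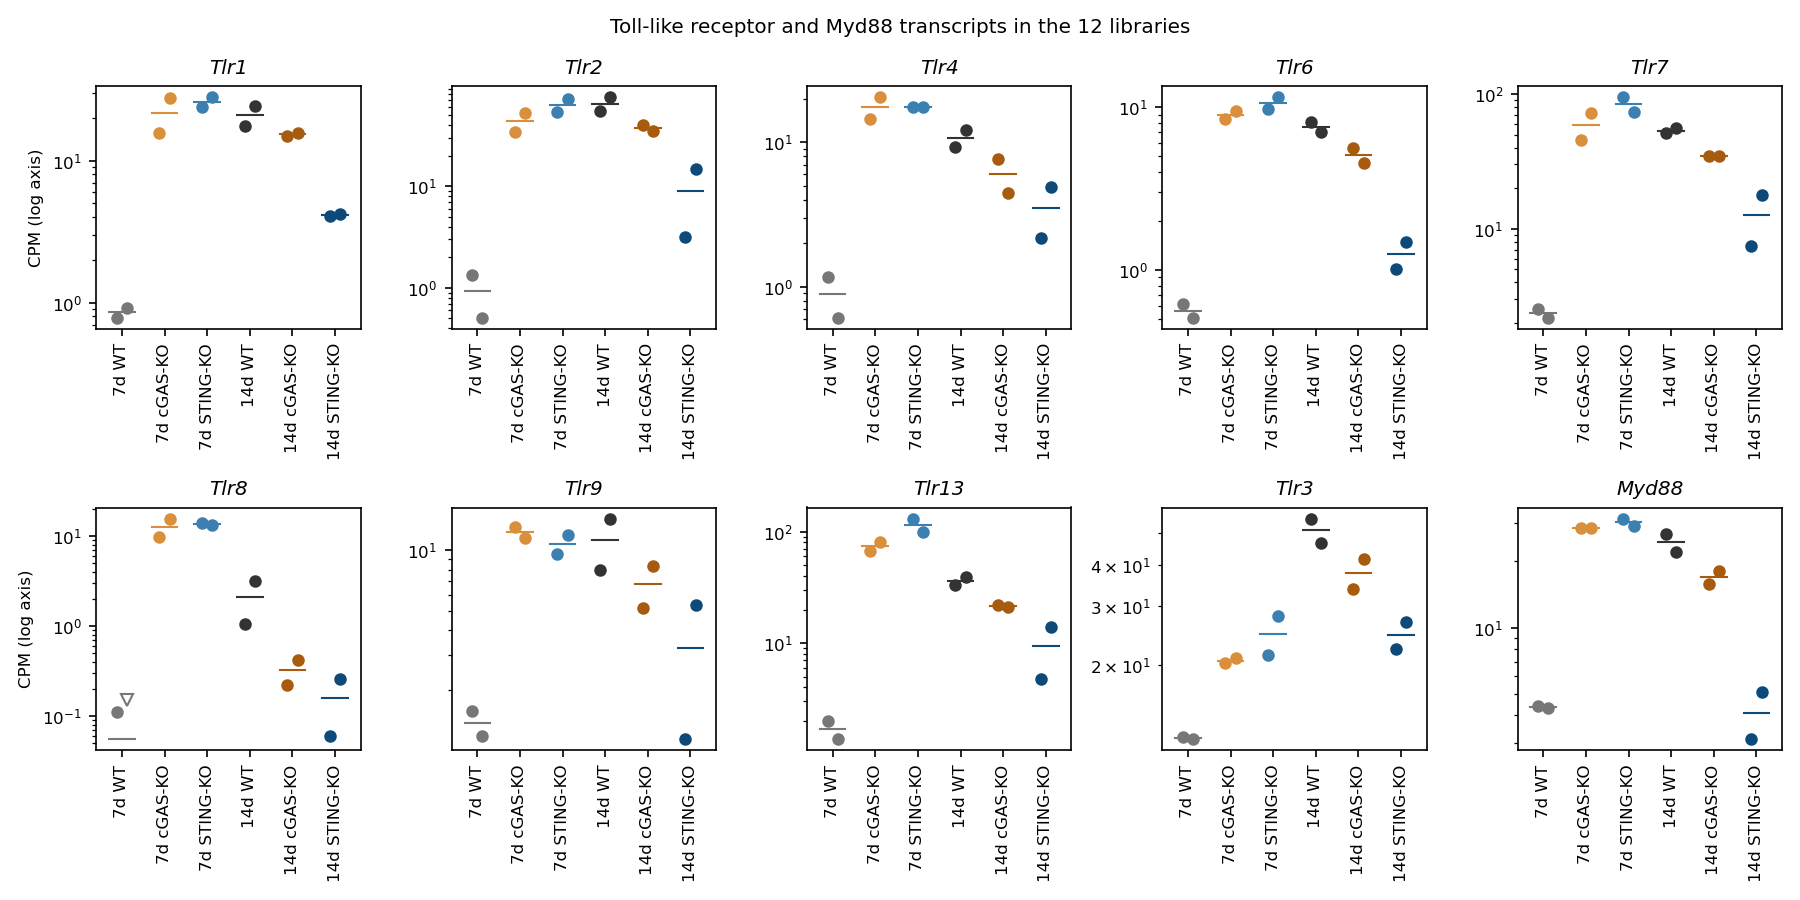
Level of each gene in CPM (log axis, own scale in each panel) in the 12 libraries, by group. Points are libraries, short lines are group means, and the open triangle marks the library without a count, drawn at the 3 counts that a count of 0 allows. In every panel both 7-day WT libraries lie below all 4 knockout libraries of day 7, and Tlr3 has the narrowest span and is the panel where both 14-day WT libraries lie above all others.

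The surface receptors for lipids were nearly silent in 7-day WT and higher in the 7-day knockout and 14-day WT libraries. Among them Tlr2 reached the highest level there, and Tlr4 and Tlr6 stayed low beside it. Tlr2 (ENSMUSG00000027995; chromosome 3, 83836272 to 83841767, minus strand), the shared partner of the lipoprotein-binding pairs, stood at 1.35 and 0.511 CPM in 7-day WT. It reached 34.4 and 52.9 CPM in 7-day cGAS-KO and 54.0 and 72.2 CPM in 7-day STING-KO. At 14 days it stood at 54.8 and 75.3 CPM in WT, at 39.9 and 35.1 CPM in cGAS-KO, and at 3.18 and 14.8 CPM in STING-KO. The 7-day WT and 14-day STING-KO libraries were thus the low ones, and their ranges overlapped no other group. Tlr1 (ENSMUSG00000044827; chromosome 5, 64924679 to 64933563), which pairs with TLR2 for triacylated lipoproteins, gave 0.785 and 0.920 CPM in 7-day WT, 15.8 and 27.7 CPM in 7-day cGAS-KO, and 24.1 and 28.1 CPM in 7-day STING-KO. At 14 days Tlr1 gave 17.6 and 24.4 CPM in WT, then 15 and 15.7 CPM in cGAS-KO, and 4.08 and 4.23 CPM in STING-KO. Its order of groups was therefore close to that of Tlr2, with both 14-day STING-KO libraries above both 7-day WT libraries.

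Tlr6 (ENSMUSG00000051498; chromosome 5, 64952031 to 64960097), the partner of TLR2 for diacylated lipoproteins and the neighbour of Tlr1, gave 0.616 and 0.511 CPM in 7-day WT, 8.44 and 9.46 CPM in 7-day cGAS-KO, and 9.80 and 11.5 CPM in 7-day STING-KO. At 14 days it gave 8.11 and 7.07 CPM in WT, then 5.65 and 4.54 CPM in cGAS-KO, and 1.02 and 1.5 CPM in STING-KO. The 3 groups at 14 days did not overlap and ran downwards in that order. Tlr1 and Tlr6 share an exact stretch of 229 bases, and 4.81% and 3.63% of the 150-base stretches of their transcripts are found in the other, so a small part of their reads is uncertain. Tlr4 (ENSMUSG00000039005; chromosome 4, 66827584 to 66930284, plus strand), the receptor for bacterial lipopolysaccharide, gave 1.18 and 0.613 CPM in 7-day WT, 14.5 and 20.5 CPM in 7-day cGAS-KO, and 17.4 and 17.6 CPM in 7-day STING-KO. At 14 days Tlr4 gave 9.28 and 12.2 CPM in WT, then 7.65 and 4.44 CPM in cGAS-KO, and 2.16 and 4.88 CPM in STING-KO. Unlike Tlr2, Tlr4 was lower in every 14-day library than in every 7-day knockout library, and its 14-day cGAS-KO and STING-KO libraries overlapped.

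Among the endosomal receptors, Tlr7 and Tlr13 reached the highest CPM of the 10 genes and Tlr8 had the widest relative range. Tlr7 (ENSMUSG00000044583; chromosome X, 167304929 to 167330558, minus strand), a receptor for single-stranded RNA, gave 2.52 and 2.20 CPM in 7-day WT, 45.9 and 72.4 CPM in 7-day cGAS-KO, and 94.9 and 73.5 CPM in 7-day STING-KO. At 14 days it gave 51.2 and 55.9 CPM in WT, then 34.4 and 34.9 CPM in cGAS-KO, and 7.43 and 17.8 CPM in STING-KO. The 14-day WT libraries of Tlr7 lay within the range of the 7-day cGAS-KO libraries. Tlr13 (ENSMUSG00000033777; chromosome X, 106143204 to 106160493, plus strand), a receptor for bacterial ribosomal RNA that humans lack, gave 2.02 and 1.38 CPM in 7-day WT, 66.9 and 81.4 CPM in 7-day cGAS-KO, and 131 and 98.9 CPM in 7-day STING-KO. At 14 days Tlr13 gave 33.2 and 39.4 CPM in WT, then 21.7 and 21.3 CPM in cGAS-KO, and 4.80 and 13.9 CPM in STING-KO. No group of Tlr13 overlapped another, and its 6 groups ran from 7-day STING-KO through 7-day cGAS-KO, 14-day WT, 14-day cGAS-KO and 14-day STING-KO down to 7-day WT.

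Tlr8 (ENSMUSG00000040522; chromosome X, 167242696 to 167264329, minus strand), which lies beside Tlr7 and binds products of RNA breakdown in humans, had fewer than 10 counts per library in 3 groups. It gave 2 and 0 counts in 7-day WT, or 0.112 CPM and none, where a count of 0 allows up to 0.153 CPM. In 7-day cGAS-KO it gave 9.82 and 15.6 CPM, and in 7-day STING-KO 13.8 and 13.1 CPM. At 14 days it gave 1.05 and 3.18 CPM in WT, then 0.222 and 0.425 CPM in cGAS-KO, and 0.0599 and 0.260 CPM in STING-KO, the last from 1 and 4 counts. Tlr8 was thus abundant in the 4 knockout libraries of day 7 and scarce in all 8 others. Tlr7 and Tlr8 share no exact stretch longer than 13 bases. Tlr9 (ENSMUSG00000045322; chromosome 9, 106222598 to 106226883, plus strand), the receptor for unmethylated CpG DNA, gave 1.57 and 1.18 CPM in 7-day WT, 13.1 and 11.6 CPM in 7-day cGAS-KO, and 9.57 and 12 CPM in 7-day STING-KO. At 14 days Tlr9 gave 8 and 14.4 CPM in WT, then 5.16 and 8.37 CPM in cGAS-KO, and 1.14 and 5.34 CPM in STING-KO. Its 14-day groups overlapped from one to the next, and 1 library of 14-day STING-KO lay below both 7-day WT libraries.

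Tlr3 (ENSMUSG00000031639; chromosome 8, 45395665 to 45411080, minus strand), the receptor for double-stranded RNA, had another order of groups. It gave 12.1 and 12 CPM in 7-day WT, 20.2 and 21.0 CPM in 7-day cGAS-KO, and 21.4 and 28.0 CPM in 7-day STING-KO. At 14 days it gave 55.2 and 46.6 CPM in WT, then 33.9 and 41.6 CPM in cGAS-KO, and 22.3 and 26.9 CPM in STING-KO. Tlr3 was thus highest in 14-day WT, and its 14-day STING-KO libraries lay within the range of 7-day STING-KO. Of its exon bases, 381 (7.32%) overlap the antisense gene Gm45542, whose reads cannot be told apart without strand. Myd88 (ENSMUSG00000032508; chromosome 9, 119335934 to 119341411, minus strand), the adaptor, gave 4.43 and 4.29 CPM in 7-day WT, 28.4 and 28.3 CPM in 7-day cGAS-KO, and 31.4 and 28.8 CPM in 7-day STING-KO. At 14 days Myd88 gave 26.7 and 22.1 CPM in WT, then 15.8 and 18.1 CPM in cGAS-KO, and 3.12 and 5.08 CPM in STING-KO. The replicates of Myd88 lay close together at 7 days, and its 14-day STING-KO libraries spanned the level of 7-day WT. Myd88 shares 290 exon bases (11.26%) with Acaa1a on the other strand, an overlap with the same limit.

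Of the other receptors of the mouse family, Tlr5 and Tlr11 were scarce, and Tlr12 was low. Tlr5, the receptor for flagellin, stood between 0.240 and 1.17 CPM in the 12 libraries. Tlr12, a receptor for the parasite protein profilin, stood between 0.3 and 6.45 CPM, with its highest value in 1 of the 14-day cGAS-KO libraries. Scaled to exon length, its mean in 14-day cGAS-KO was 1.49 CPM per kb, against 1.37 for Tlr6 and 1.09 for Tlr4. In 14-day WT it was 1.003, against 2.037 and 1.935. By edgeR Tlr12 was called higher than WT in 7-day cGAS-KO (adjusted p = 0.0231) but not in 7-day STING-KO (0.0874). It was also called higher in WT at 14 days than at 7 days (0.0361). In 14-day cGAS-KO against WT it changed by 0.57 ± 0.54 and was not called. Tlr11 had at most 9 counts, had none in 7-day WT and 14-day STING-KO, and was not tested.

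Scaled to merged exon length, the receptor that led the family changed with the group. In 7-day WT, Tlr3 led with a mean of 2.31 CPM per kb, and the next, Tlr7, had 0.578 CPM per kb, with no overlap between them. In the 7-day knockout libraries Tlr13 led, with 17.2 CPM per kb in cGAS-KO and 26.7 CPM per kb in STING-KO. There Tlr2 and Tlr7 followed, with 14.5 CPM per kb each in cGAS-KO and 20.9 and 20.6 CPM per kb in STING-KO, and neighbours among these 3 overlapped, so their order there is not separated by the libraries. In 14-day WT the order was Tlr2 with 21.6, Tlr7 with 13.1, Tlr3 with 9.77 and Tlr13 with 8.43 CPM per kb, of which Tlr3 and Tlr13 overlapped. In 14-day cGAS-KO Tlr2 led with 12.4, followed by Tlr7 with 8.49, Tlr3 with 7.25 and Tlr13 with 5 CPM per kb, none overlapping its neighbour. In 14-day STING-KO Tlr3 led again with 4.72 CPM per kb but overlapped Tlr7 with 3.09 CPM per kb. Tlr8 was last in 7-day WT and in the 3 groups at day 14, at 0.0156 to 0.590 CPM per kb, and stood above Tlr4 and Tlr6 in the 7-day knockout libraries.

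The same shift shows in the share of each gene in the summed length-scaled level of the 9 receptors. Tlr3 made up 46.9% to 54.9% of that sum in 7-day WT, 4.32% to 6.66% in the 7-day knockout libraries, 12.2% to 18.8% in 14-day WT and cGAS-KO, and 40.8% and 23.6% in 14-day STING-KO. Tlr13 made up 23.5% to 32% in the 7-day knockout libraries and 11.7% to 12.7% in 14-day WT and cGAS-KO. Tlr2 moved the other way, from 18.8% to 26.0% in the 7-day knockout libraries to 27.5% to 34.1% in 14-day WT and cGAS-KO. Tlr8 made up 3.98% to 5.42% in the 7-day knockout libraries and 0.147% to 1.21% in 14-day WT and cGAS-KO. None of these ranges overlapped between the groups named. The share of Tlr7 lay between 17.4% and 24.4% in every library outside 7-day WT, where it was 12.5% and 12.9%.

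**Figure D2:**
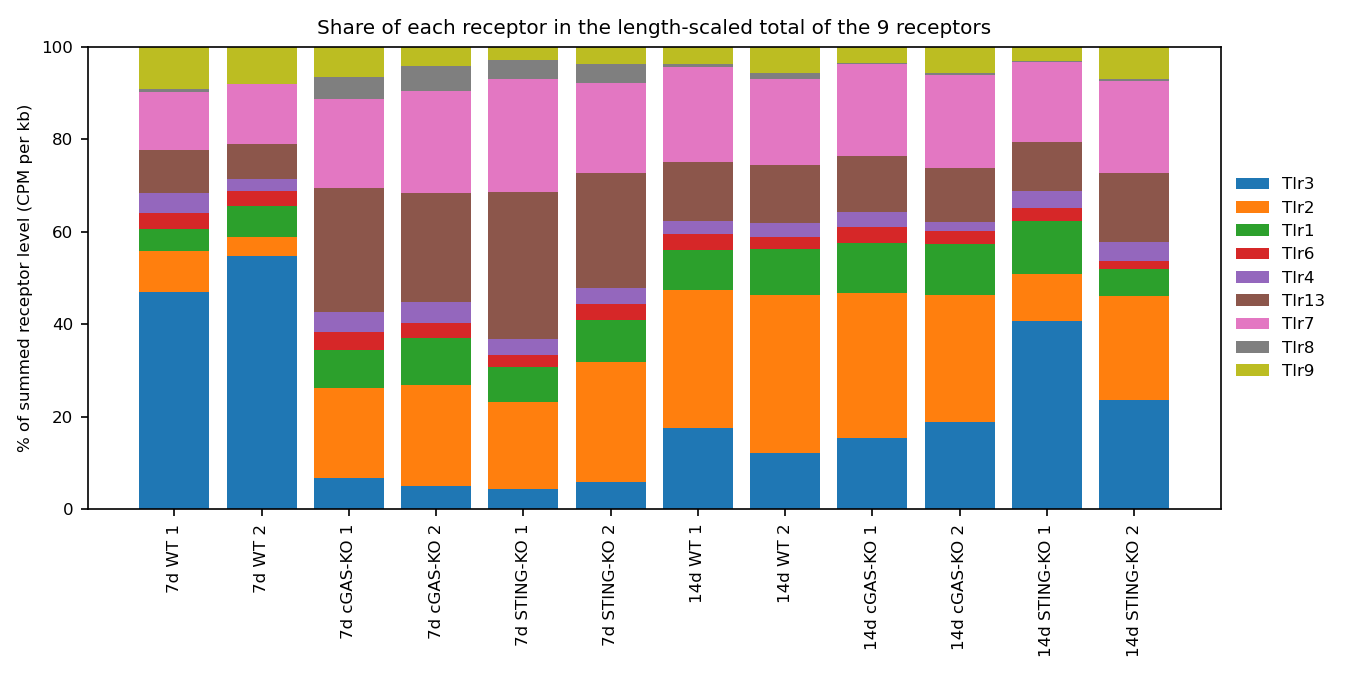
Share of each receptor, in percent, in the summed level of the 9 receptors (CPM per kb of merged exons), 1 bar per library. The Tlr3 segment fills 46.9% to 54.9% of the bars of 7-day WT and at most 6.66% of the 7-day knockout bars, where the Tlr13 segment is widest.

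The first question of the design is how the knockout libraries differ from WT at 7 days. All 10 genes were higher in 7-day cGAS-KO than in 7-day WT, a direction called for 27.8% of the 19822 genes tested. All 10 were also higher in 7-day STING-KO, a direction called for 26.3% of all genes. The median log2 change over the 10 genes was 4.47 in cGAS-KO and 4.61 in STING-KO, while that of all genes tested was 0.04 and 0.03. In bulk tissue, fewer cells of a type and less RNA per cell cannot be told apart. The 2 comparisons share the 7-day WT libraries, so their values stand side by side and are not independent.

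The change was greatest for Tlr2, Tlr13 and Tlr8 and least for Tlr3. Tlr2 was higher by 5.57 ± 0.66 (log2 change ± SE, adjusted p = 4.2e-05 by edgeR) in cGAS-KO and by 6.10 ± 0.66 (adjusted p = 2.3e-05) in STING-KO. Tlr13 was higher by 5.45 ± 0.44 and 6.08 ± 0.44 (adjusted p = 2.6e-06 and 1.4e-06). For Tlr8 the ratio of pooled counts rests on 2 counts in 7-day WT: it was 242 in cGAS-KO (95% counting interval 66.7 to 2010) and 252 in STING-KO (69.3 to 2080). Tlr7 was higher by 4.65 ± 0.40 and 5.16 ± 0.40, and Tlr1 by 4.66 ± 0.36 and 4.92 ± 0.36. Tlr4 was higher by 4.30 ± 0.46 in both comparisons, Tlr6 by 3.98 ± 0.34 and 4.23 ± 0.33, and Tlr9 by 3.17 ± 0.56 and 2.97 ± 0.57. The adaptor Myd88 was higher by 2.70 ± 0.22 and 2.79 ± 0.22 (adjusted p = 2.1e-06 and 1.7e-06), the smallest change after that of Tlr3. Tlr3 was higher by 0.77 ± 0.19 (adjusted p = 0.0052) and 1.04 ± 0.19 (adjusted p = 7.7e-04), or 1.71-fold and 2.05-fold. All 20 calls held with each library left out in turn, and the highest adjusted p was 0.0453, for Tlr3 in cGAS-KO.

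Markers of myeloid cells moved with the receptors. All 12 genes of the pan-myeloid list were called higher in both 7-day comparisons, with median log2 changes of 4.94 and 5.33. Their summed level was 333 and 270 CPM in 7-day WT, 7500 and 8509 CPM in 7-day cGAS-KO, and 9825 and 10690 CPM in 7-day STING-KO. The 10 markers of homeostatic microglia, all called higher in both, summed to 216 to 225 CPM in 7-day WT and 1859 to 2765 CPM in the 7-day knockout libraries. The 10 markers of monocytes and macrophages summed to 3.93 to 7.73 CPM and 176 to 293 CPM, with 10 called higher in cGAS-KO and 9 in STING-KO. Their defining marker F13a1 stood at 2.07 and 1.53 CPM in 7-day WT. Markers of neutrophils summed to 0.448 to 0.766 CPM in 7-day WT, with 4 or 5 of the 8 genes at 0, and to 17.5 to 26.2 CPM in the 7-day knockout libraries. The part of these cell types in the receptor changes was not tested.

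Set against the pan-myeloid sum of the same library, the receptors split. Tlr3 had 36.4 and 44.3 CPM per 1000 CPM of pan-myeloid transcripts in 7-day WT and 2.18 to 2.69 in the 7-day knockout libraries. Myd88 had 13.3 and 15.9 in 7-day WT and 2.70 to 3.78 in the 7-day knockout libraries. Tlr9 had 4.72 and 4.35 in 7-day WT and 0.974 to 1.75 there. Tlr6 had 1.85 and 1.89 in 7-day WT and 0.998 to 1.13 there. These 4 genes therefore gained less than the pan-myeloid sum did. The microglial list changed less than that sum, by medians of 2.74 and 3.16, which lie below the changes of Tlr6. Tlr13 had 6.06 and 5.11 in 7-day WT and 8.92 to 13.3 in the 7-day knockout libraries, so it gained more. Tlr2 had 4.04 and 1.89 in 7-day WT, on 24 and 10 counts, and 4.59 to 6.75 in the 7-day knockout libraries. Those values did not overlap, but the nearest lay close, so a greater gain of Tlr2 is not settled. Tlr8 went from 0.337 and 0, on 2 counts, to 1.23 to 1.84. The values of Tlr7 overlapped, at 7.58 and 8.13 in 7-day WT and 6.12 to 9.66 in the 7-day knockout libraries, and those of Tlr1 and Tlr4 overlapped too. Astrocytes, which also transcribe Tlr3, are not part of the pan-myeloid sum. Their markers summed to 4215 and 4362 CPM in 7-day WT and to 5483 to 9341 CPM in the 7-day knockout libraries. The part of astrocytes in the level of Tlr3 was not tested.

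**Figure D3:**
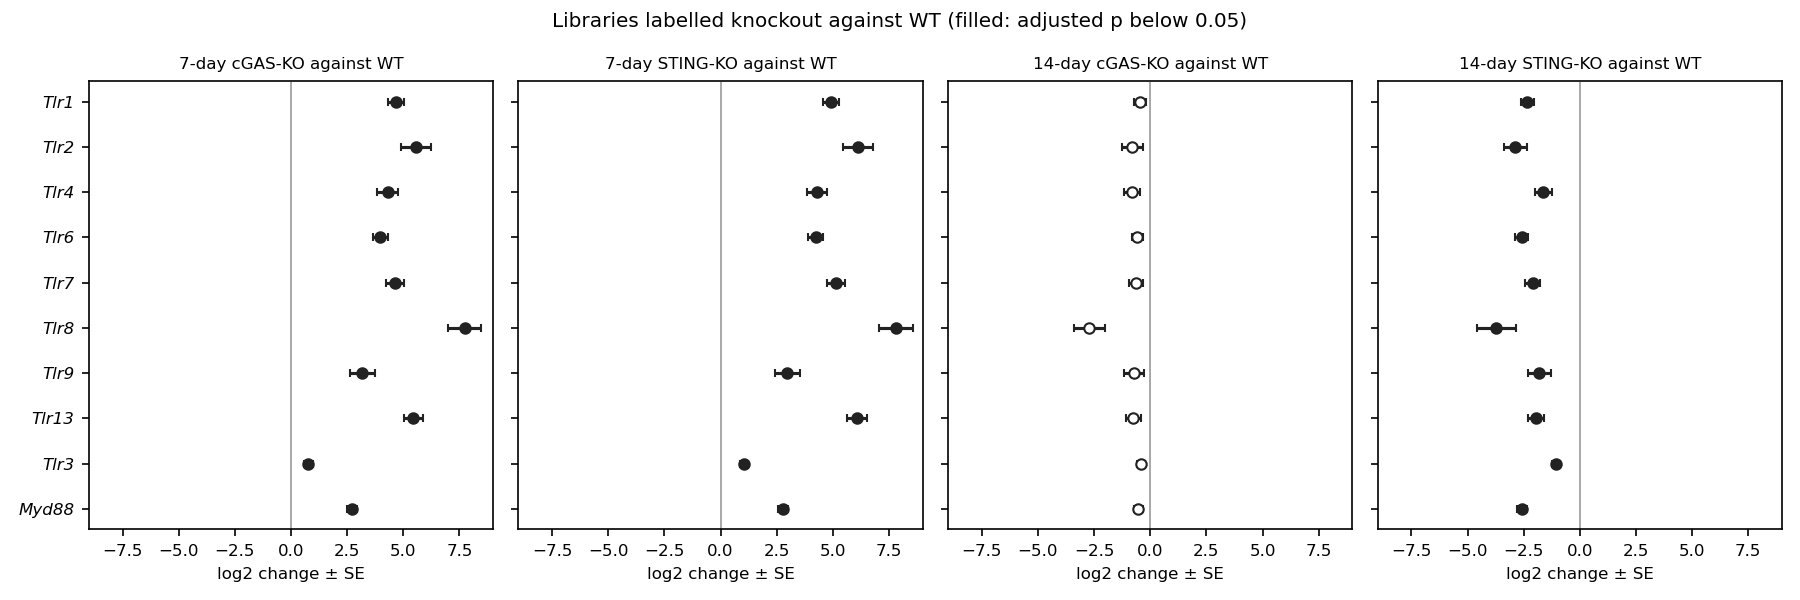
Log2 change ± SE (edgeR) of the 10 genes for knockout libraries against WT at each time; filled points have an adjusted p below 0.05. All 10 points are filled to the right of 0 in both 7-day panels, open to the left of 0 in the 14-day cGAS-KO panel, and filled to the left of 0 in the 14-day STING-KO panel.

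Between the 2 knockout labels at 7 days no member passed the test. None was called between 7-day cGAS-KO and STING-KO by edgeR or by DESeq2, and none had an unadjusted p below 0.05. Of the 19822 genes tested, edgeR called 0.161%, DESeq2 called 263, and 1758 had an unadjusted p below 0.05. The median log2 change of the 10 genes was -0.26. The libraries of 6 members, Tlr2, Tlr3, Tlr6, Tlr7, Tlr13 and Myd88, did not overlap and were lower in cGAS-KO, where 21.4% of all genes had lower libraries that did not overlap. Tlr13 had the largest difference, at -0.63 ± 0.32. Tlr2 differed by -0.53 ± 0.45 and Tlr4 by 0.00 ± 0.32.

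At 14 days the libraries labelled cGAS-KO stood below WT on average in all 10 genes, from 1.35-fold for Tlr3 to 6.54-fold for Tlr8. None of these genes passed the edgeR test. By edgeR 0 members were called, 6 had an unadjusted p below 0.05, all lower, and DESeq2 called 1. That 1 was Tlr8, at -2.72 ± 0.65 (adjusted p = 0.0079 by DESeq2), where edgeR gave -2.71 ± 0.68 (adjusted p = 0.218, and 0.0079 to 0.605 over the alternatives). Of the 19822 genes tested, edgeR called 0.0303% and DESeq2 called 151. An unadjusted p below 0.05, in either direction, was found for 2185 of them. The libraries of 9 members did not overlap, all of them lower, where 20.2% of all genes had lower libraries that did not overlap. The exception was Tlr9. The median log2 change was -0.68 over the 10 genes against -0.01 over all genes. Myd88 changed by -0.53 ± 0.20 (adjusted p = 0.372), Tlr2 by -0.80 ± 0.45 and Tlr3 by -0.43 ± 0.18.

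The general myeloid markers of these 2 groups were close together, and those of monocytes and neutrophils were not. The pan-myeloid sum was 3658 and 3730 CPM in 14-day WT and 3074 and 3233 CPM in 14-day cGAS-KO, and none of its 12 genes was called. The monocyte and macrophage markers stood at 61.0 and 62.8 CPM in 14-day WT and 6.71 and 16.0 CPM in 14-day cGAS-KO, with 2 of 10 called lower, Clec4d and F13a1. In 1 of the cGAS-KO libraries 3 of these 10 markers were at 0. The neutrophil markers summed to 20.8 and 7.24 CPM in 14-day WT and to 1.29 and 1.65 CPM in 14-day cGAS-KO, with 1 of the 4 tested, Mmp8, called lower. Tlr8, with 18 and 58 counts in 14-day WT and 5 and 9 counts in 14-day cGAS-KO, had the largest difference of the members. The part of the monocyte and neutrophil markers in the level of Tlr8 was not tested.

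The libraries labelled STING-KO at 14 days were low in all 10 genes. All 10 were called lower than 14-day WT, a direction called for 17.4% of all genes. The median log2 change was -2.21 against -0.03 over all genes. Myd88 changed by -2.58 ± 0.23 (adjusted p = 3.5e-05), Tlr6 by -2.60 ± 0.31 (adjusted p = 1.4e-04) and Tlr1 by -2.34 ± 0.29 (adjusted p = 1.9e-04). Tlr2 changed by -2.87 ± 0.51, Tlr7 by -2.09 ± 0.34 and Tlr13 by -1.96 ± 0.36, with adjusted p from 9.0e-04 to 0.0019. Tlr3 changed least, by -1.05 ± 0.18 (adjusted p = 0.0012), a 2.07-fold lower level. Tlr4 changed by -1.62 ± 0.39, Tlr9 by -1.82 ± 0.51 and Tlr8 by -3.72 ± 0.86, the last from 76 pooled counts against 5.

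The calls of Tlr4, Tlr8 and Tlr9 depended on single libraries, and that of Tlr9 also ended with the compared libraries fitted alone (adjusted p = 0.0741 by edgeR). Without replicate 1 of 14-day STING-KO the adjusted p was 0.0704 for Tlr4, 0.0625 for Tlr8 and 0.0977 for Tlr9. Without replicate 2 of 14-day WT it was 0.0649 for Tlr8 and 0.128 for Tlr9. The log2 changes of Tlr2, Tlr7 and Tlr13 were -2.13, -1.58 and -1.38 without replicate 1 of 14-day STING-KO and stayed called. The 2 STING-KO libraries differed in their pan-myeloid sum, at 380 and 1016 CPM, and all 12 pan-myeloid genes were called lower than in WT. The 10 microglial markers, also all called lower, summed to 416 and 768 CPM against 1634 and 1719 CPM in 14-day WT, while those of striatal projection neurons were all called higher. The part of these shifts in the receptor levels was not tested.

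Against each other at 14 days, cGAS-KO was higher than STING-KO in 7 of the 10 genes, a direction called for 18.2% of all genes. Myd88 differed by 2.05 ± 0.23 (adjusted p = 1.7e-04), Tlr2 by 2.07 ± 0.50 (adjusted p = 0.0088), Tlr6 by 2.02 ± 0.31 and Tlr1 by 1.88 ± 0.29. Tlr7 differed by 1.46 ± 0.33, Tlr13 by 1.21 ± 0.36 (adjusted p = 0.0225) and Tlr3 by 0.62 ± 0.18 (adjusted p = 0.0204). Tlr4 (0.80 ± 0.40), Tlr8 (1.01 ± 1.23) and Tlr9 (1.08 ± 0.52) were not called, and their libraries overlapped. The call of Tlr3 ended without replicate 2 of cGAS-KO (adjusted p = 0.141) or replicate 1 of STING-KO (0.124). That of Tlr13 ended without either cGAS-KO library (0.0804 and 0.0758) or without replicate 1 of STING-KO (0.0907), and with no filter on low counts the calls of Tlr2 (0.0692) and Tlr13 (0.0659) ended. Fitted on the compared libraries alone, Tlr3 (0.0755) and Tlr13 (0.0884) lost their calls. Without replicate 2 of STING-KO, Tlr4 and Tlr9 were called too (0.0322 and 0.0060).

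Between 7 and 14 days the members went up in WT and mostly down in the knockout libraries. In WT all 10 rose, a direction called for 24.1% of all genes, with a median log2 change of 4.08. Tlr2 rose by 6.15 ± 0.66 (adjusted p = 4.3e-05), Tlr1 by 4.61 ± 0.36, Tlr7 by 4.5 ± 0.40 and Tlr13 by 4.42 ± 0.43. Tlr6 rose by 3.74 ± 0.34, Tlr4 by 3.6 ± 0.47, Tlr9 by 3.03 ± 0.57, Myd88 by 2.48 ± 0.22 and Tlr3 by 2.08 ± 0.19 (adjusted p = 1.1e-05). For Tlr8 the count ratio was 40.2 (95% counting interval 10.8 to 338). These values share the 7-day WT libraries with the 7-day comparisons. The pan-myeloid list rose in 12 of 12 genes as well.

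In cGAS-KO the members parted. Tlr3 rose by 0.87 ± 0.18 (adjusted p = 0.0043), and 5 fell: Tlr8 by 5.29, Tlr13 by 1.79, Tlr4 by 1.53, Tlr6 by 0.81 and Myd88 by 0.74 on the log2 scale. Of all genes, 13.4% were called higher and 17% lower. Tlr2 changed by -0.22 ± 0.46, Tlr1 by -0.51 ± 0.25, Tlr7 by -0.77 ± 0.31 and Tlr9 by -0.87 ± 0.45, none of them called. Of the pan-myeloid genes, 8 of 12 fell over the same interval, and their sum went from 7500 and 8509 CPM to 3074 and 3233 CPM. Relative to that sum, Tlr2 went from 4.59 and 6.22 to 13 and 10.9 CPM per 1000, and Tlr3 from 2.69 and 2.47 to 11 and 12.9. Tlr8 went from 1.31 and 1.84 to 0.0723 and 0.132 CPM per 1000, so it left the sum in the other direction. The monocyte and macrophage markers fell in 9 of 10 genes, and the choroid plexus markers in 8 of 8. The astrocyte markers went from sums of 5973 and 5789 CPM to 9284 and 8373 CPM, and their part in the rise of Tlr3 was not tested.

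Single libraries and the choice of libraries in the fit decided several calls in cGAS-KO. Without replicate 2 of 14-day cGAS-KO the adjusted p was 0.0604 for Tlr4 and 0.114 for Tlr6, and without replicate 1 it was 0.0996 for Myd88. Without replicate 2 of 7-day cGAS-KO it was 0.0542 for Tlr4, 0.125 for Tlr6 and 0.0633 for Myd88, so that 3 members were called in place of 6. Without replicate 1 of 7-day cGAS-KO it was 0.0654 for Tlr6 and 0.0689 for Myd88, and Tlr1 was called (0.0365). With either library of 14-day STING-KO left out, although neither is in this comparison, Tlr7 (0.0123 and 0.0122) and Tlr9 (0.0477 and 0.0478) were called. With the compared libraries fitted alone, Tlr6 lost its call (0.0568) and Tlr7 gained one (0.0401), and Tlr7 was also called with the groups 7-day WT and 14-day STING-KO left out (0.0261). Tlr3, Tlr8 and Tlr13 were called with each library left out.

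In STING-KO 9 of the 10 genes fell, a direction called for 29.5% of all genes, with a median log2 change of -2.78. Tlr8 fell by 6.37, Tlr13 by 3.63, Tlr6 by 3.09, Myd88 by 2.88 and Tlr2 by 2.82 on the log2 scale. Tlr7 fell by 2.74, Tlr1 by 2.65, Tlr4 by 2.33 and Tlr9 by 1.76. Tlr3 was the exception, at -0.01 ± 0.18 (adjusted p = 0.97), with overlapping libraries. The call of Tlr9 ended without replicate 1 of 14-day STING-KO (0.0747) or replicate 2 of 7-day STING-KO (0.0622), and with the compared libraries fitted alone (0.0557). All 12 pan-myeloid genes and 8 of 10 microglial markers fell, and all 10 markers of striatal projection neurons rose.

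**Figure D4:**
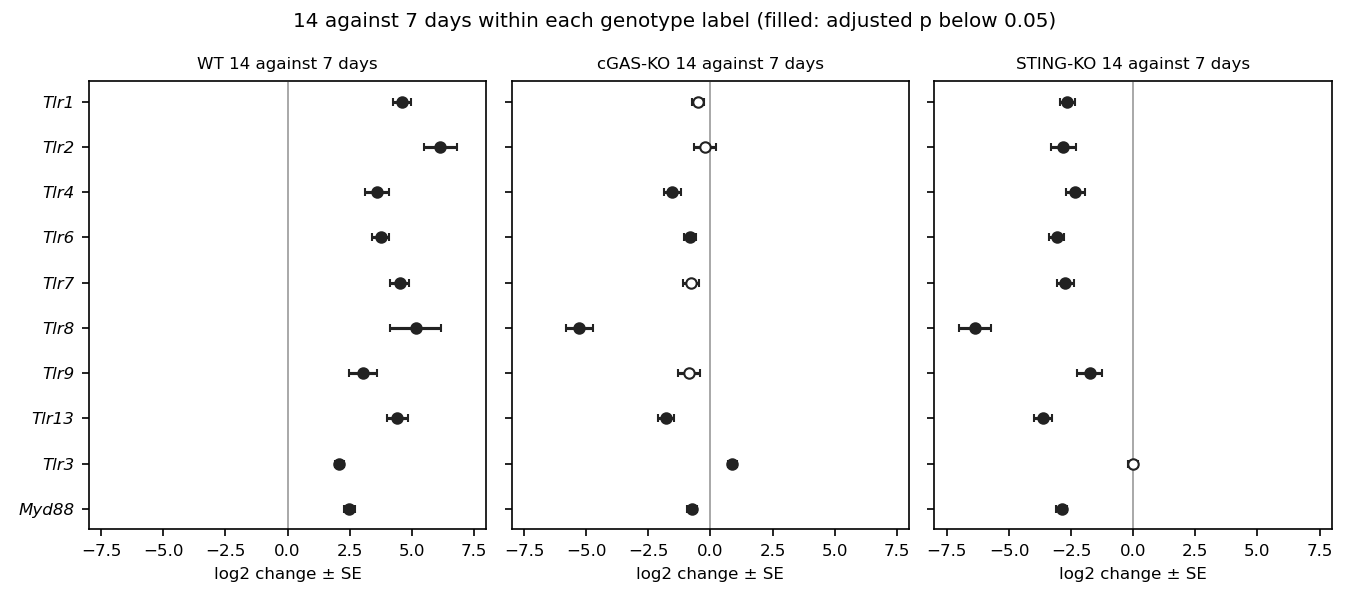
Log2 change ± SE (edgeR) of the 10 genes from day 7 to day 14 within each genotype label; filled points have an adjusted p below 0.05. All 10 genes are filled and above 0 in WT, Tlr3 alone is filled above 0 in cGAS-KO, and Tlr3 sits at -0.01 in STING-KO while the other 9 are filled below 0.

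The difference from WT therefore depended on the day, by a test of the difference itself. The cGAS-KO effect at 14 days minus that at 7 days was called lower for all 10 genes, against 21% of all genes, with a median of -5.12. The STING-KO effect was called lower for all 10 as well, against 27.6% of all genes, with a median of -7.04. The smallest of these differences were those of Tlr3, at -1.21 ± 0.26 (adjusted p = 0.0035) for cGAS-KO and -2.09 ± 0.26 (adjusted p = 4.2e-05) for STING-KO. Both sets use the low 7-day WT libraries, and no library outside that group gives a 7-day WT level.

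**Figure D5:**
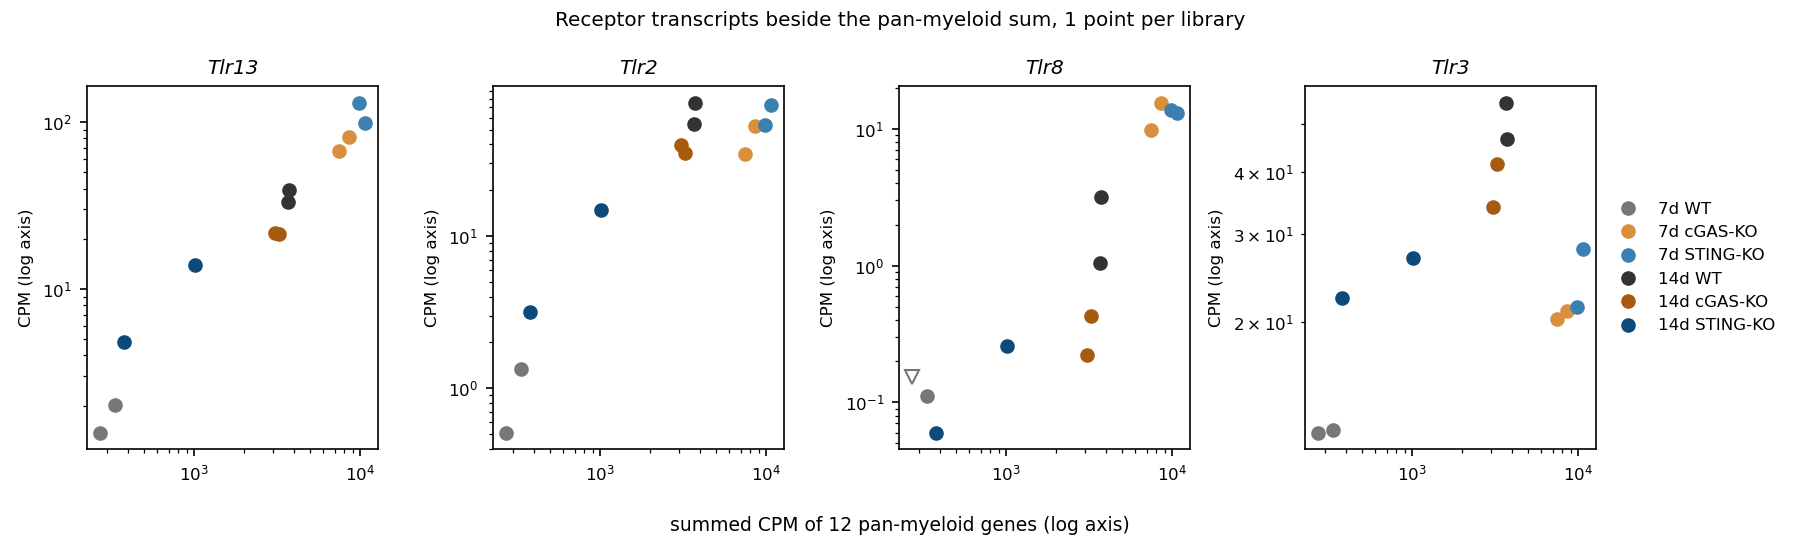
Level of 4 receptors in CPM against the summed CPM of 12 pan-myeloid genes, both on log axes, 1 point per library and 1 colour per group; the open triangle stands at the limit of 3 counts. Tlr13 climbs with the sum, Tlr2 stands at 34.4 to 75.3 CPM in the 7-day knockout, 14-day WT and 14-day cGAS-KO libraries, Tlr8 is above 9 CPM only in the 7-day knockout libraries, and Tlr3 is highest at 46.6 and 55.2 CPM in 14-day WT.

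Across the 12 libraries, which share groups and depth, Tlr3 stood apart from most other members, and Tlr8 from several. Pearson's r of log2 CPM was 0.187 to 0.745 between Tlr3 and each other member and 0.752 to 0.911 between Tlr8 and each of the members other than Tlr3, as a description. It reached at most 0.985 between any 2 members. The genes with the highest r with each member were sought among all tested genes with a mean log2 CPM of at least 1. For Tlr2 they included Ptprc (r = 0.996), the pan-leukocyte phosphatase CD45, and Clec7a (0.992), a receptor for fungal glucans. For Tlr6 they included Laptm5 and Itgam (0.992 each), for Tlr7 they included Pik3cg (0.997), for Tlr13 and Tlr4 both C3ar1 (0.995 and 0.984), the receptor for complement C3a, and for Tlr1 Poc1b (0.994) and Cd48 (0.991). For Tlr8 the first was Dok2 (0.989), for Tlr9 the class I histocompatibility genes H2-D1 (0.985) and H2-K1 (0.979), and for Myd88 Psmb8 (0.992), a subunit of the immunoproteasome, and Bst2 (0.989). The genes most like Tlr3 were Ifit3b (0.968), an interferon-induced gene, Cnih4 (0.964) and Ednrb (0.963), the endothelin B receptor.

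The rest of the pathway was read from 7 lists of 85 genes, of which 80 were tested. In 7-day cGAS-KO against WT 60 were higher and 6 lower, where 50.3% of all genes were called in either direction. In 7-day STING-KO 64 were higher and 6 lower, against 48.9% of all genes. In 14-day STING-KO against WT 6 were higher and 53 lower, against 33.9%. In 14-day cGAS-KO against WT edgeR called 0, against 0.0303% of all genes. At an unadjusted p below 0.05, 12 were lower and 0 higher, where 2185 of all 19822 genes passed in either direction. DESeq2 called 3 lower, where it called 151 of all genes. Most called genes of the lists thus moved in the members' direction.

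All 7 co-receptors and accessory proteins were higher in both 7-day comparisons, with median log2 changes of 4.79 and 5.03, and 6 of 7 were lower in 14-day STING-KO. Cd180, a receptor-like protein of B cells and macrophages, stood at 3.25 and 1.84 CPM in 7-day WT, at 133 and 164 CPM in 7-day cGAS-KO, and at 255 and 248 CPM in 7-day STING-KO. At 14 days Cd180 stood at 85.2 and 107 CPM in WT, at 61.9 and 75.6 CPM in cGAS-KO, and at 5.75 and 25.6 CPM in STING-KO. Cd36, a scavenger receptor that serves TLR2 pairs, followed Tlr8 rather than Tlr2. It stood at 60.0 and 101 CPM in 7-day cGAS-KO and at 291 and 188 CPM in 7-day STING-KO, and between 0.613 and 4.5 CPM in all 8 other libraries. Lbp, the protein that carries lipopolysaccharide to CD14, was higher by 4.79 and 4.90 at 7 days and changed by -0.71 in 14-day STING-KO, where it was the 1 gene not called.

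Of the 13 genes of receptor trafficking and processing, 9 were higher in 7-day cGAS-KO and 11 in 7-day STING-KO. Unc93b1, the chaperone that brings the nucleic-acid receptors to endosomes, was chosen after its values were seen. It stood at 16.9 and 12.3 CPM in 7-day WT, at 293 and 362 CPM in 7-day cGAS-KO, and at 296 and 368 CPM in 7-day STING-KO. In 14-day STING-KO it stood at 14.2 and 44.0 CPM, against 143 and 166 CPM in 14-day WT. Ctsb, Ctss and Lgmn, proteases of the endolysosome of which cathepsins and legumain cleave endosomal receptors, were each higher by at least 3.88 in both 7-day comparisons and lower in 14-day STING-KO, where 8 of the 13 fell. Ap3b1, a sorting adaptor, was the 1 gene higher there, by 0.35.

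Among the adaptors beside Myd88, 4 of 5 were higher and Sarm1 was lower in both 7-day comparisons. Pik3ap1, an adaptor to PI3-kinase, was higher by 4.90 and 5.43. Ticam1, which encodes TRIF, the adaptor of TLR3, was higher by 1.69 and 1.76, and Tirap by 2.08 and 2.04. Sarm1, known in neurons for its role in axon breakdown, stood at 42.8 and 44.2 CPM in 7-day WT and at 9.04 to 16.8 CPM in the 7-day knockout libraries. In 14-day STING-KO 3 of the 5 were lower, and Ticam2 (-1.03) and Sarm1 (-0.42) were not called.

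The 17 kinases and ubiquitin ligases changed least, with median log2 changes of 0.50 and 0.48 at 7 days. There 9 were higher and 2 lower in cGAS-KO, and 10 and 2 in STING-KO. Ikbke and Btk, both expressed in immune cells, were higher by 3.73 to 4.87, and Irak4, the kinase recruited by MyD88, by 2.65 and 2.63. Irak4 stood at 4.09 and 4.14 CPM in 7-day WT and at 23.4 to 28.1 CPM in the 7-day knockout libraries. In 14-day STING-KO 7 were lower and 3 higher. Tbk1, the kinase that TRIF and STING share, also chosen after its values were seen, stood between 41.8 and 65.2 CPM in every library and was called higher by 0.41 in 14-day STING-KO.

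Of 11 transcription factors, 9 and 10 were higher at 7 days, with medians of 1.55 and 1.58, and 9 were lower in 14-day STING-KO. Irf8 and Irf5, which carry receptor signals in myeloid cells, were higher by 4.5 and 3.91 in 7-day cGAS-KO and by 4.89 and 4.33 in 7-day STING-KO. Nfkb2 was higher by 3.29 and 3.07, and Nfkb1 by 1.55 and 1.58. Irf7, chosen after its values were seen, was highest in 14-day WT, at 103 and 79.6 CPM. It stood at 12.4 and 46.9 CPM in 14-day cGAS-KO and at 17.5 to 20.8 CPM in the 7-day knockout libraries.

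Of 12 negative regulators, 9 were higher and 2 lower in both 7-day comparisons, and 6 were lower and 2 higher in 14-day STING-KO. Inpp5d, the phosphatase SHIP1 of blood cells, was higher by 3.92 and 4.21 at 7 days. Tnfaip3, which encodes A20, was higher by 1.28 and 2.06. The 2 lower genes were Cyld (-0.72 in cGAS-KO) and Tollip (-0.63), and these 2 were the higher ones in 14-day STING-KO. Cyld, a deubiquitinase, stood at 412 and 432 CPM in 14-day STING-KO and at 71.7 to 167 CPM in the other 10 libraries.

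Genes that the receptors are known to induce were in part below detection. Of 20 listed, 15 were tested, and Il6, Il10, Il12b, Cxcl2 and Ifnb1 were not. Ifnb1, which encodes interferon beta, was listed at 0 in 10 of the 12 libraries. Of the 15, 13 were higher and Ptgs2 was lower in both 7-day comparisons, with median log2 changes of 4.30 and 4.67, or 3.74 and 3.54 with the gene at 0 in 7-day WT set to its bound. In 14-day STING-KO 14 were lower and 0 higher, with a median of -3.09. Ccl4, a chemokine, stood at 0.616 and 0.153 CPM in 7-day WT, at 7.17 and 15.4 CPM in 7-day cGAS-KO, and at 34.5 and 33.0 CPM in 7-day STING-KO. Cd86, a costimulatory protein, was highest in 14-day WT, at 39.9 and 40.0 CPM, against 16.1 to 21.4 CPM in the 7-day knockout libraries. Ptgs2, which neurons also express, stood at 23.5 and 27.6 CPM in 7-day WT and at 3.18 to 10.6 CPM elsewhere.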

How the data were processed

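Poly(A)-selected RNA was sequenced in 12 striatal libraries. The authors deposited raw read counts per Ensembl gene, made with HISAT2 and featureCounts on mm10 per the submitters' processing notes; versions, annotation release, strand and multi-mapping settings are not given in the sources used here. Symbols and exon lengths came from GENCODE M21 on GRCm38, the same build as mm10, and promoter windows from RefSeq. The members and gene lists were chosen with earlier results of these data known.

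Genes were filtered with filterByExpr (10 counts, total 15), which left 19822, scaled by TMM and fitted together over the 6 groups with edgeR 4.0.16 (quasi-likelihood, R 4.3.3), with 6 residual degrees of freedom. P-values are two-sided and Benjamini-Hochberg adjusted over all genes tested, and 0.05 is the threshold. Errors are standard errors of log2 changes. Levels are given per library (n = 2 a group). CPM uses TMM-scaled library sizes. DESeq2 1.42.0, other filters, scalings and sample sets, a replicate block and leaving out each library were the alternatives. The pipeline was run on simulated counts in which few genes changed in a single group. That run does not cover shifts as wide as those between these groups. Named were all members, up to 3 genes most like each, and up to 4 genes of a list by adjusted p or those that define a cell type; exceptions are stated. Counting intervals and limits of 3 counts cover counting error only.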

Additional observations from a re-analysis of the deposited data

Results flagged for a closer look

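For all 10 genes the difference between knockout and WT libraries was not the same at 14 days as at 7 days, by the edgeR test of that difference. For cGAS-KO the log2 effect at 14 days minus that at 7 days was -5.117 for Tlr1, -6.368 for Tlr2, -5.127 for Tlr4 and -4.553 for Tlr6. It was -5.277 for Tlr7, -10.44 for Tlr8, -3.905 for Tlr9, -6.207 for Tlr13, -1.206 for Tlr3 and -3.227 for Myd88. For STING-KO it was -7.26 for Tlr1, -8.966 for Tlr2, -5.922 for Tlr4 and -6.828 for Tlr6. It was -7.246 for Tlr7, -11.52 for Tlr8, -4.79 for Tlr9, -8.047 for Tlr13, -2.089 for Tlr3 and -5.366 for Myd88. Both effects use the same 4 WT libraries, and the fitted values of Tlr8 rest on 2 counts in 7-day WT.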

How the results depend on the processing

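With 2 libraries a group and no statement of separate mice, calls near the threshold rest on single libraries. The number of members called differed by more than 1.5 times from the value reported in 2 cases: DESeq2 called 1 member in 14-day cGAS-KO against WT where edgeR called 0, and leaving out 1 library gave 3 to 8 members between 7 and 14 days in cGAS-KO, where 6 were called. Leaving out 1 library gave 7 to 10 members in 14-day STING-KO against WT and 5 to 9 in 14-day cGAS-KO against STING-KO. The number of all genes called moved more. In 14-day cGAS-KO against WT it was 6 by edgeR, 151 by DESeq2, 29 with no filter, 16 with the compared libraries alone and 0 to 18 with 1 library left out. In 7-day cGAS-KO against STING-KO it was 32 by edgeR, 263 by DESeq2, 60 with no filter, 5 with the legacy form, 2 with the compared libraries alone, 10 with 7-day WT and 14-day STING-KO left out and 0 to 202 with 1 library left out. With the compared libraries alone it was 4271 in place of 6717 in 14-day STING-KO against WT and 4614 in place of 7112 in 14-day cGAS-KO against STING-KO. Leaving out 1 library brought it to 4203 in the first of these, without replicate 1 of WT, and to 4632 in the second, without replicate 2 of cGAS-KO. Between 7 and 14 days it brought the number from 8693 to 5579 in WT, without replicate 2 of day 7, and from 6022 to 2968 in cGAS-KO, without replicate 1 of day 7.

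Direction turned for 5 log2 changes, none of which was called. That of Tlr4 between 7-day cGAS-KO and STING-KO was 0.000674 and became -0.006899 with DESeq2 size factors, -0.009512 with DESeq2, -0.004034 with no filter, -0.001543 with the legacy quasi-likelihood form and -0.001296 with the groups 7-day WT and 14-day STING-KO left out. With 1 library left out it ran from -0.3129 to 0.2262, that of Tlr1 from -0.7612 to 0.08257 and that of Tlr8 from -0.4908 to 0.2141. Between 7 and 14 days, Tlr2 in cGAS-KO ran from -0.501 to 0.1561 and Tlr3 in STING-KO from -0.1962 to 0.1876, with 0.0008966 under the stricter filter.

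Replicate numbers did not pair the libraries: the correlation of same-numbered deviations was -0.0923 to 0.196 over 15 pairs of groups. With the replicate block the number of members called was the same in all 11 comparisons (10, 10, 0, 10, 0, 7, 10, 6, 9, 10 and 10), and the Tlr4 change named above was -0.009872.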
